A study of Arabidopsis thaliana with 32 samples.

Results

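The loci described here lie around the centromere of chromosome 3 of Arabidopsis thaliana. They are all rows of the deposited expression table whose locus identifiers run from AT3G29500 to AT3G44250, with AT3G30720, AT3G42670 and AT3G43920 left out, and they number 977 of the 30385 loci of the table. The other 5127 AT3G loci of the table served for comparison, and they hold the 3 loci left out as well as those outside the interval. The members were chosen by identifier and not by their values.

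Whole seedlings were measured on 1-colour arrays. The groups, each of 4 arrays, were sahh1 seedlings and Columbia wild-type seedlings at 1, 4, 7 and 10 days of age. sahh1 is a mutant deficient in S-adenosylhomocysteine hydrolase 1, and the labels do not name the allele or say how many plants were pooled. Within each group array 1 resembled array 2 and array 3 resembled array 4 more than arrays resembled one another across these pairs, so each pair was averaged into 1 sample, which left n = 2 samples per group. Nothing in the labels says that the samples came from separate cultures, so p values measure only the spread between these samples.

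S-adenosylhomocysteine hydrolase removes the product that every S-adenosylmethionine-dependent methyltransferase releases and that inhibits those enzymes. DNA and histone methylation, which keep heterochromatin silent in plants, both draw on this cycle. Pericentromeric heterochromatin is dense in transposable elements and their remnants, with scattered active genes between them. RefSeq lists many such remnants as pseudogenes, without saying which of them are transposable element genes.

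Most of the members were pseudogenes. RefSeq lists 745 of the 977 as pseudogenes (686 plain and 59 transcribed), 222 as protein-coding and 10 not at all, while of the other AT3G loci 4846 were protein-coding and 250 pseudogenes. The members were divided in locus order into zone 1 (AT3G29500 to AT3G30799, 226 loci), zone 2 (AT3G30800 to AT3G33999, 335 loci), zone 3 (AT3G34000 to AT3G42599, 114 loci) and zone 4 (AT3G42600 to AT3G44250, 302 loci). The protein-coding loci numbered 54, 40, 16 and 112 in zones 1 to 4. Only 40 members have a symbol in RefSeq.

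Levels are log2 intensities, and differences are sahh1 minus wild type on that scale with the standard error (SE) of a limma fit over all loci and 8 groups. A locus was called where the Benjamini-Hochberg adjusted p over all 30385 loci was under 0.05. Median intensities of the arrays lay between 995 and 1054 at day 1, between 449 and 493 at day 4, between 1793 and 1945 at day 7 and between 956 and 982 at day 10, so levels are set side by side within an age. As a check of the labels, SAHH1 itself (AT4G13940) averaged 14.25 in sahh1 and 15.52 in wild type at day 1, 13.44 and 14.98 at day 4, 15.14 and 15.62 at day 7, and 14.16 and 14.93 at day 10. The difference was called at days 1 and 4 (adjusted p = 0.0117 and 0.0144) and not at days 7 and 10 (0.723 and 0.276). The sahh1 samples of day 4 stood apart: the SD of the difference between arrays of its 2 samples was 0.701 to 0.710, against 0.179 to 0.331 in the other groups. The count of members called at day 4 is therefore also given without each of these samples. Left out in turn, sample 1 and sample 2 gave SAHH1 differences of -1.07 and -2.00 at day 4 (adjusted p = 0.00393 and 1.57e-04).

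In wild type the members were dim. The median log2 level of the 977 was 4.06 at day 1, 5.37 at day 4, 5.44 at day 7 and 4.68 at day 10, and 72.4%, 70.8%, 65.3% and 71.0% of them lay below the lower quartile of all loci. A minority was bright: 70 members at day 1 exceeded the median of all loci, and the brightest reached 15.46. Rises from so low a wild-type level are therefore imprecise in size. At day 4 the dim end of the scale was raised, with a 5th percentile of all loci of 5.17 in wild type, against 3.61 at day 1. In whole seedlings fewer cells that express a locus and less RNA per cell cannot be told apart.

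At day 1, 94 of the 977 members were higher in sahh1 and 2 were lower. That is 9.62% higher, where 2.16% of all loci and 0.702% of the other AT3G loci (36 of 5127) were called higher; 0.296% of all loci were called lower. The risers were 86 pseudogenes and 8 protein-coding loci. They spanned all 4 zones: 30 of 226 in zone 1, 29 of 335 in zone 2, 8 of 114 in zone 3 and 27 of 302 in zone 4. Their differences ran between 0.82 and 6.59 with a median of 2.31, and 90 were at least 2-fold. The median difference over all members was -0.003, beside -0.02 over all loci. All 4 sahh1 arrays were above all 4 wild-type arrays for 154 members (15.8%), against 7.95% of all loci, and below them for 38 (3.89%), against 8.95%. The count was 77 to 104 without any 1 of the 16 samples, and 65 after quantile normalization over all arrays.

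The calls were also counted by biotype. At day 1, 11.5% of the pericentromeric pseudogenes were called higher (86 of 745), 9.20% of the other AT3G pseudogenes (23 of 250) and 12.3% of all pseudogenes of the table (545 of 4426). Among protein-coding loci the shares were 3.60% of the pericentromeric ones (8 of 222), 0.268% of the other AT3G ones (13 of 4846) and 0.415% of all (106 of 25558). All 4 sahh1 arrays lay above all 4 wild-type arrays for 18.3%, 14.8% and 18.8% of these pseudogene classes in the same order. For the protein-coding classes it was 7.66%, 5.67% and 6.13%. These are counts, and no test of the difference between classes was made. In wild type 65 of the 94 risers lay below the lower quartile of all loci and the other 29 between it and the median. Among pseudogenes below that quartile 60 of 591 members (10.2%) and 17 of 162 other AT3G loci (10.5%) were called higher, and between it and the median 26 of 142 (18.3%) and 6 of 63 (9.52%). None of the 70 members above the median of all loci was called higher by limma (1 at an unadjusted p under 0.05). Of the other AT3G loci, 0 of 1438 between the median and the upper quartile and 0 of 1498 above it were called higher. The count of 0 therefore does not set the bright members apart.

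**Figure D1:**
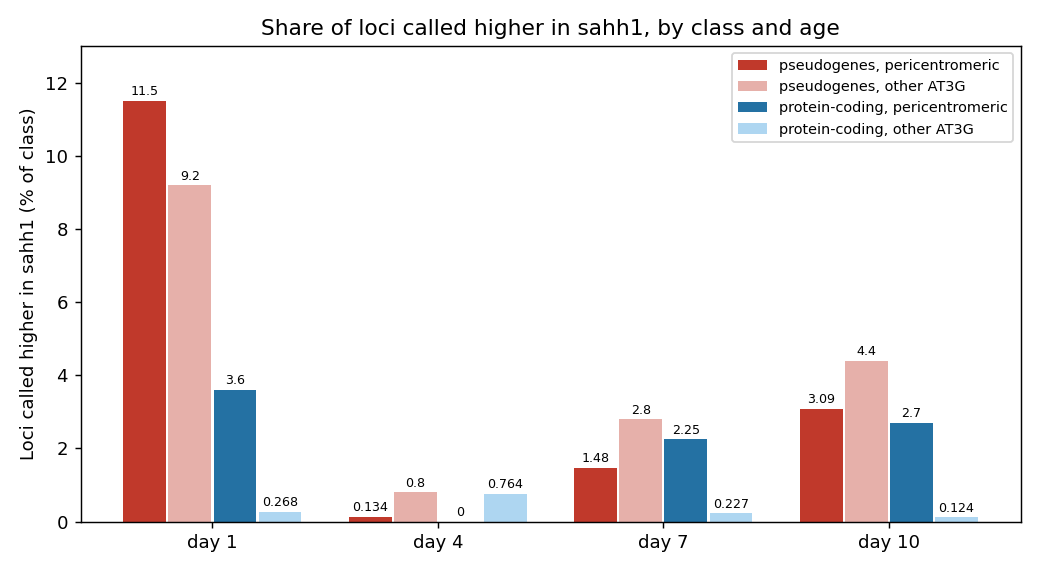
Share of loci called higher in sahh1 (vertical axis, percent of the class) at 4 ages, for pseudogenes and protein-coding loci inside the pericentromeric interval of chromosome 3 and among the other AT3G loci. At day 1 the pseudogene bars stand at 11.5% and 9.20%, and the protein-coding bars at 3.60% and 0.268%.

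The pseudogene AT3G44215, in zone 4, had the largest rise of the members at day 1. Its level was 10.67 and 10.75 in sahh1, against 4.25 and 3.99 in wild type (difference 6.59 ± 0.54, adjusted p = 1.63e-05). The samples of the genotypes were far apart, and wild type was near the dim end of the scale. AT3G30767 stood at 11.04 and 11.04 in sahh1, against 5.64 and 5.45 in wild type (5.49 ± 0.35, adjusted p = 2.12e-06). AT3G30396 had levels of 11.32 and 10.55 in sahh1, against 5.44 and 5.50 in wild type (5.46 ± 0.49, adjusted p = 3.62e-05). AT3G30744 had 9.42 and 8.81 in sahh1, against 3.91 and 3.50 in wild type (5.41 ± 0.31, adjusted p = 1.11e-06). These last 3 loci are pseudogenes of zone 1, and in each of them both sahh1 samples exceeded both wild-type samples by more than 4 on the log2 scale. None of these 4 calls was lost under any alternative processing.

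Protein-coding loci rose beside the pseudogenes at day 1. AT3G43833 in zone 4 had levels of 8.60 and 8.91 in sahh1, against 3.82 and 3.73 in wild type (4.98 ± 0.19, adjusted p = 1.43e-07), with no overlap and a spread within each genotype of under 0.4. AT3G44070 had 7.39 and 7.72 in sahh1, against 4.34 and 3.89 in wild type (3.44 ± 0.23, adjusted p = 3.53e-06), and AT3G42723 6.39 and 7.14 in sahh1, against 4.37 and 4.00 in wild type (2.58 ± 0.28, adjusted p = 1.82e-04). These 3 loci have no symbol in RefSeq and no role is given to them here. AT3G30770 in zone 1 was 9.91 and 10.30 in sahh1, against 6.95 and 6.25 in wild type (3.51 ± 0.64, adjusted p = 0.0101). Leaving out either sahh1 sample (adjusted p = 0.0516 for sample 1 and 0.0928 for sample 2) or wild-type sample 2 (0.114) ended this call, as did quantile normalization (0.0796).

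The 2 members that were lower at day 1 changed little. AT3G29970, a protein-coding locus of zone 1, stood at 6.07 and 6.04 in sahh1, against 6.80 and 6.99 in wild type (-0.84 ± 0.19, adjusted p = 0.0463). The pseudogene AT3G32032 was 3.44 and 3.41 in sahh1, against 4.03 and 4.14 in wild type (-0.67 ± 0.15, adjusted p = 0.0384). Both calls were lost without either sample of either genotype of day 1, with adjusted p of 0.153 to 0.332 for AT3G29970 and 0.161 to 0.283 for AT3G32032. Both were also lost without any 1 of several samples of other ages, with adjusted p of 0.0504 to 0.0709 and 0.0536 to 0.0626, and after quantile normalization (0.256 and 0.114).

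**Figure D2:**
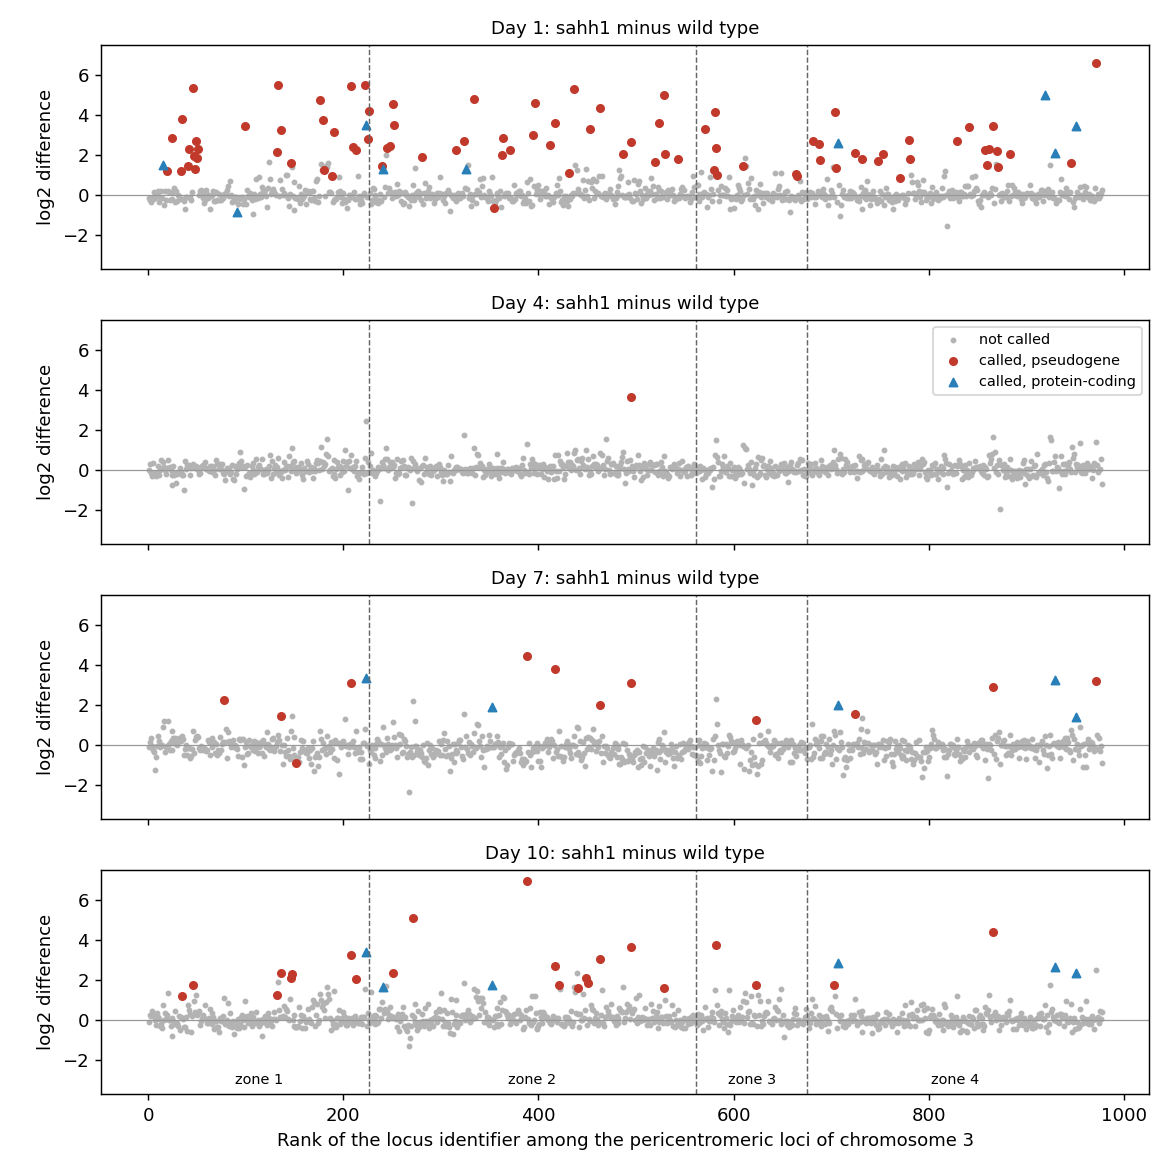
Difference between sahh1 and wild type (vertical axes, log2) of each of the 977 loci in the order of their identifiers (horizontal axis) at 4 ages. Coloured points are called loci, dashed lines part the 4 zones, and called loci lie in every zone at day 1, with 94 higher there against 1 at day 4, 16 at day 7 and 29 at day 10.

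Neighbours rose together in places. Of the 94 risers of day 1, 40 stood in 17 runs of 2 or more consecutive members, and the other 54 had no called neighbour. With 9.62% of the members called, some would adjoin by position alone, and how many was not worked out. The longest run held 6 pseudogenes, AT3G29730, AT3G29732, AT3G29734, AT3G29736, AT3G29738 and AT3G29739, and the next held 4, AT3G42083 to AT3G42100. In the run of 6, AT3G29730 had levels of 10.96 and 11.04 in sahh1, against 5.51 and 5.84 in wild type at day 1 (5.33 ± 0.36, adjusted p = 3.15e-06). AT3G29736 had 6.44 and 6.90 in sahh1, against 3.98 and 4.00 in wild type (2.68 ± 0.28, adjusted p = 1.28e-04). AT3G29734 had the smallest rise of the run, with 5.41 and 5.75 in sahh1, against 4.49 and 4.08 in wild type (1.29, adjusted p = 0.00116). The differences of the other 3 were 1.93, 1.82 and 2.30, and in all 6 both sahh1 samples lay above both wild-type samples. At day 10 AT3G29730 was still called (1.78 ± 0.36, adjusted p = 0.0396), with levels of 9.06 and 9.11 in sahh1, against 7.16 and 7.45 in wild type. The other 5 had differences between 0.26 and 1.27 at day 10 and were not called (lowest adjusted p = 0.0683). The 4 loci inside the run were named after their values were seen.

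**Figure D3:**
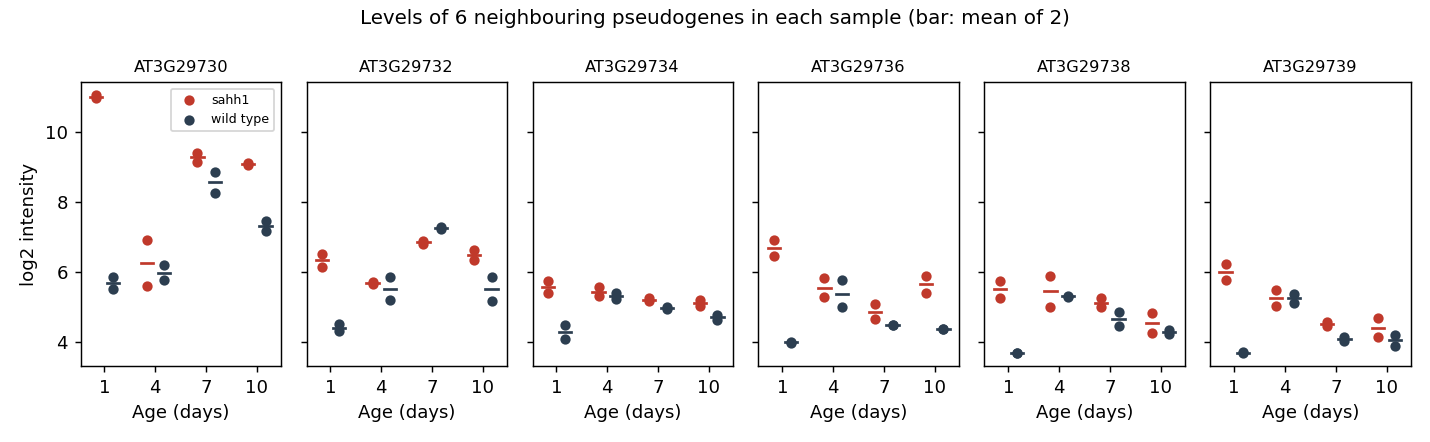
Levels (vertical axes, log2 intensity) of 6 neighbouring pseudogenes of zone 1 at 4 ages (horizontal axes, days), with 1 point per sample and a bar at the mean of 2 samples, sahh1 left of wild type. At day 1 the sahh1 points lie above the wild-type points in all 6, by 5.33 in AT3G29730 and 1.29 in AT3G29734.

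At day 4, 1 member was higher in sahh1 and 0 were lower by limma, 0.102% of the members against 0.780% of all loci higher and 0.833% lower. At an unadjusted p under 0.05, 53 members were higher and 19 lower. The 1 member was the pseudogene AT3G33076 of zone 2, with levels of 10.19 and 10.15 in sahh1, against 6.60 and 6.45 in wild type (3.64 ± 0.27, adjusted p = 7.27e-05), and it was also called without sahh1 sample 1 (adjusted p = 8.94e-04) and without sample 2 (7.59e-04). Of the 222 protein-coding members 0 were called higher by limma (12 at an unadjusted p under 0.05), where 37 of 4846 other AT3G protein-coding loci (0.764%) were, and 2 of 250 other AT3G pseudogenes (0.8%) were called. The count rested on the sahh1 samples of that age: without sahh1 sample 1 it was 29 higher and 4 lower, and without sahh1 sample 2 it was 48 and 16. It was 2 without either wild-type day 10 sample and 3 without either wild-type day 7 sample. After quantile normalization over all arrays it was 28 higher and 22 lower. All 4 sahh1 arrays lay above all 4 wild-type arrays for 33 members (3.38%), against 6.38% of all loci, and under them for 19 (1.94%), against 6.15%. They lay above for 2.95% of the pericentromeric pseudogenes, 4.4% of the other AT3G pseudogenes and 4.43% of all pseudogenes. AT3G30770 shows the spread, with 8.98 and 6.59 in sahh1, against 5.27 and 5.42 in wild type at day 4 (2.44 ± 0.64, adjusted p = 0.0917).

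At day 7, 16 members were higher and 1 was lower, and 11 of the 16 were pseudogenes. That is 1.64% of the members higher, against 0.563% of all loci and 0.351% of the other AT3G loci (18 of 5127); 0.0658% of all loci were called lower. The shares of pseudogenes called were 1.48% inside the interval (11 of 745) and 2.80% outside it (7 of 250), and those of protein-coding loci 2.25% (5 of 222) and 0.227% (11 of 4846). The count of 16 went to 7 without sahh1 day 7 sample 1 and to 9 without sahh1 sample 2 or without either wild-type sample of that age. After quantile normalization over all arrays it was 3, and with the day 7 groups alone 1. The median of all members was -0.11 (0.01 over all loci), and it stayed below 0 under the other scalings (-0.17 to -0.06). Taken array by array, 115 members (11.8%) were lower on every sahh1 array than on any wild-type array, against 5.68% of all loci, and 63 (6.45%) were higher, against 7.51%. Among pseudogenes 14.0% of the pericentromeric ones, 8.0% of the other AT3G ones and 13.6% of all were lower on every sahh1 array. Their median differences were -0.154, -0.053 and -0.156, so the shift was not particular to the interval. The median level over all members was 5.142 and 5.316 in the sahh1 samples and 5.319 and 5.537 in the wild-type samples. The nearest samples of the genotypes therefore hardly differed, and the shift was small beside the spread between samples.

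The 2 largest rises of day 7 were in zone 2, and those that followed were spread over zones 1, 2 and 4. The pseudogene AT3G32195 had levels of 10.25 and 11.12 in sahh1, against 6.13 and 6.34 in wild type (4.45 ± 0.35, adjusted p = 7.14e-05), with no overlap. The transcribed pseudogene AT3G32377 had 8.11 and 7.64 in sahh1, against 4.2 and 3.96 in wild type (3.79 ± 0.39, adjusted p = 4.52e-04). AT3G33076 had 11.43 and 11.99 in sahh1, against 8.68 and 8.51 in wild type (3.11 ± 0.27, adjusted p = 1.22e-04). These 3 rises were lost only in a fit of the day 7 groups alone (adjusted p = 0.0559 to 0.0745). AT3G44215, which led at day 1, stood at 8.35 and 7.93 in sahh1, against 5.22 and 4.66 in wild type (3.20 ± 0.54, adjusted p = 0.0203). Its call at day 7 was lost without any 1 sample of that age (0.0555 to 0.191), after quantile normalization (0.171), with the day 7 groups alone (0.0998) and without the day 4 groups (0.0742).

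Of the protein-coding loci, AT3G43880 had 7.68 and 8.12 in sahh1, against 4.65 and 4.67 in wild type at day 7 (3.24 ± 0.27, adjusted p = 9.03e-05), with the samples of each genotype close together. That call was lost after quantile normalization (0.122) and with the day 7 groups alone (0.0582). AT3G30770 had 10.70 and 11.02 in sahh1, against 7.43 and 7.61 in wild type (3.34 ± 0.64, adjusted p = 0.0443), AT3G42723 7.19 and 7.31 in sahh1, against 5.46 and 5.05 in wild type (1.99 ± 0.28, adjusted p = 0.00619), and AT3G32030 8.79 and 9.22 in sahh1, against 7.25 and 6.99 in wild type (1.89 ± 0.35, adjusted p = 0.0411). In all 3 the genotypes did not overlap. AT3G30770 and AT3G32030 were lost without any 1 sample of day 7 (0.0955 to 0.283) and without samples of other ages (0.0509 to 0.0849). Quantile normalization (0.201 and 0.439) and scaling to reference genes (0.0782 and 0.0801) also ended both calls, the dim-locus filter that of AT3G30770 (0.052), and the crossed replicate block (0.0563), a fit without the day 4 groups (0.0728) and the day 7 groups alone (0.178) that of AT3G32030. AT3G42723 was not called once either sahh1 sample (0.0509 for sample 1 and 0.0534 for sample 2) or wild-type sample 2 (0.0725) was left out, after quantile normalization (0.414) or with the day 7 groups alone (0.121). The pseudogene AT3G30480, the 1 member that was lower, had 4.83 and 5.28 in sahh1, against 6.07 and 5.89 in wild type (-0.92 ± 0.17, adjusted p = 0.0352). It was lost without sahh1 day 7 sample 1 (0.369), without either wild-type sample of that age (0.139 and 0.128) and without samples of days 1, 4 and 10 (0.0575 to 0.0660). After quantile normalization its adjusted p was 1.0, and with the day 7 groups alone 0.581.

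At day 10, 29 members were higher in sahh1 and 0 were lower by limma (134 and 33 at an unadjusted p under 0.05). That is 2.97% of the members higher, against 0.823% of all loci and 0.332% of the other AT3G loci (17 of 5127); 0.201% of all loci were called lower. The 29 were 23 pseudogenes and 6 protein-coding loci, with 9 in zone 1, 13 in zone 2, 2 in zone 3 and 5 in zone 4. The shares of pseudogenes called were 3.09% inside the interval (23 of 745), 4.4% outside it (11 of 250) and 3.91% over the table (173 of 4426). Among protein-coding loci they were 2.70% (6 of 222) and 0.124% (6 of 4846). All 4 sahh1 arrays lay above all 4 wild-type arrays for 153 members (15.7%), against 6.01% of all loci, and under them for 30 (3.07%), against 7.14%. They lay above for 17.6% of the pericentromeric pseudogenes, 14.8% of the other AT3G pseudogenes and 15.9% of all pseudogenes. For protein-coding loci these shares were 9.46%, 4.17% and 4.34%. The count of 29 went to 19 without sahh1 day 10 sample 1 and to 16 after quantile normalization, all 16 of them among the 29.

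AT3G32195 also had the largest rise at day 10, with levels of 12.32 and 12.10 in sahh1, against 5.52 and 5.03 in wild type (6.93 ± 0.35, adjusted p = 1.65e-06). The pseudogene AT3G31300 of zone 2 had 10.33 and 9.88 in sahh1, against 5.17 and 4.84 in wild type (5.10 ± 0.44, adjusted p = 1.13e-04). AT3G43563, a pseudogene of zone 4, had 9.91 and 10.61 in sahh1, against 5.84 and 5.91 in wild type (4.39 ± 0.51, adjusted p = 8.77e-04), and AT3G42090 of zone 3 8.51 and 8.01 in sahh1, against 4.60 and 4.44 in wild type (3.74 ± 0.50, adjusted p = 0.003). In all 4 the genotypes were more than 3 apart in every pairing of samples, and no alternative ended these calls. The protein-coding loci with the largest rises were AT3G30770 with 10.29 and 10.28 in sahh1, against 7.61 and 6.11 in wild type (3.43 ± 0.64, adjusted p = 0.0253), AT3G42723 with 7.12 and 7.08 in sahh1, against 4.19 and 4.29 in wild type (2.86 ± 0.28, adjusted p = 2.72e-04), AT3G43880 with 7.13 and 7.16 in sahh1, against 4.47 and 4.52 in wild type (2.65 ± 0.27, adjusted p = 3.06e-04) and AT3G44070 with 7.23 and 7.57 in sahh1, against 4.74 and 5.35 in wild type (2.35 ± 0.23, adjusted p = 2.74e-04). The wild-type samples of AT3G30770 differed by 1.49, and leaving out either sahh1 sample (0.156 for sample 1 and 0.176 for sample 2) or wild-type sample 2 (0.219) ended its call, as did quantile normalization (0.0756). The other 3 calls were kept without any 1 sample, and that of AT3G43880 was lost after quantile normalization (0.0528).

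**Figure D4:**
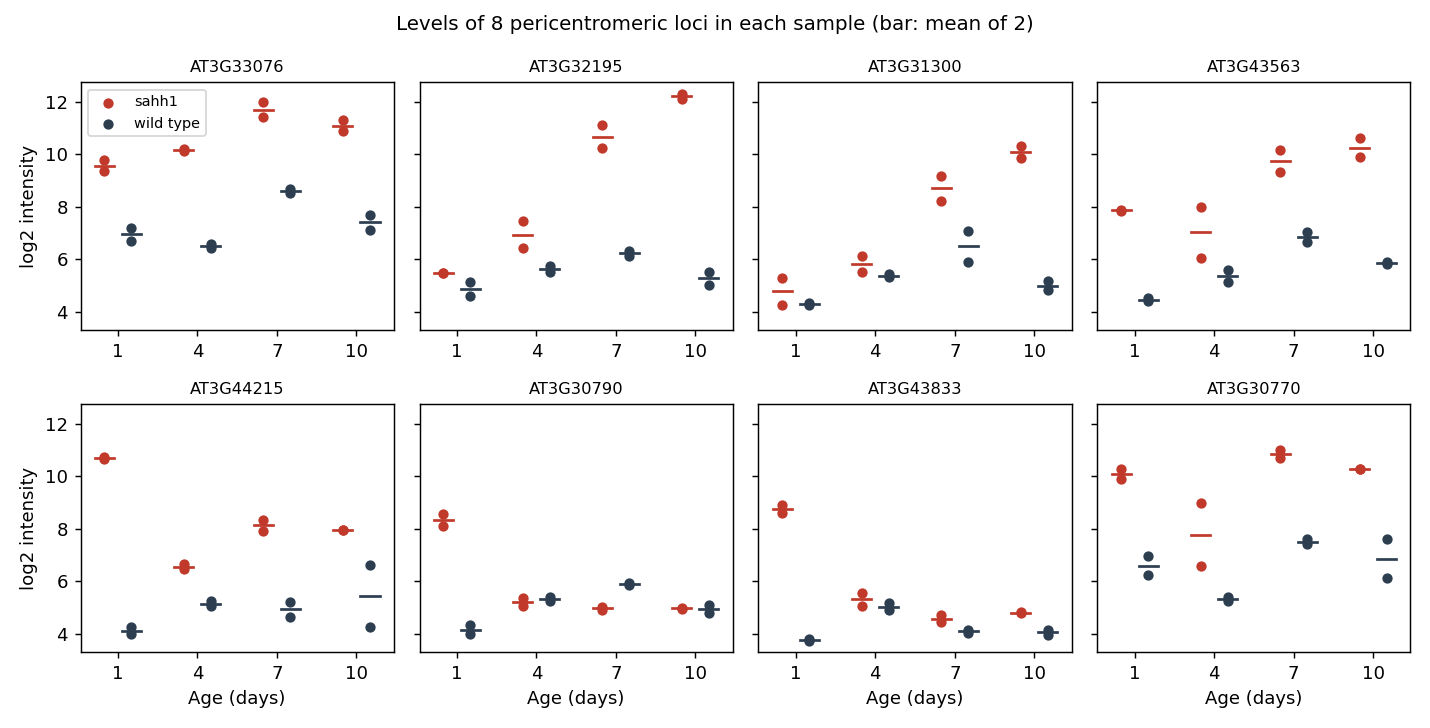
Levels (vertical axes, log2 intensity) of 8 pericentromeric loci at 4 ages (horizontal axes, days), 1 point per sample, bar at the mean of 2 samples, sahh1 left of wild type. AT3G33076 is apart at all ages, AT3G32195 and AT3G31300 at the later ages, and AT3G30790 and AT3G43833 at day 1.

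Over the 4 ages 105 members were called higher at 1 age or more, 24 at 2 or more and 10 at 3 or more. These are 10.7%, 2.46% and 1.02% of the members, against 3.04%, 0.783% and 0.375% of all loci and 1.52%, 0.390% and 0.176% of the other AT3G loci. The other 872 members were called higher at no age. AT3G33076 was the 1 member called at all 4 ages (0.102%, against 0.122% of all loci), with differences of 2.61, 3.64, 3.11 and 3.68 at days 1, 4, 7 and 10. Its levels at day 1 were 9.35 and 9.79 in sahh1, against 7.21 and 6.71 in wild type, and at day 10 11.29 and 10.88 in sahh1, against 7.70 and 7.12 in wild type. On the mean of the 4 ages 95 members were higher and 6 lower (9.72% and 0.614%), against 2.45% and 1.03% of all loci, and 11 of the 95 were called at no single age. By biotype, 85 of 745 pericentromeric pseudogenes (11.4%) were higher on that mean, 30 of 250 other AT3G ones and 507 of 4426 of all (11.5%). The pseudogene share was therefore not higher inside the interval. Of protein-coding loci 10 of 222 inside it were higher, against 40 of 4846 other AT3G ones (0.825%) and 233 of 25558 of all (0.912%).

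The ages share no samples, so the risers of day 1 could be read in the others. Of the 94, 82 (87.2%) had a positive difference at day 10, against 489 of the other 883 members (55.4%), and the medians were 0.75 and 0.04. At day 7 the positive ones were 59 of 94 (62.8%) and 300 of 883 (34.0%), with medians of 0.21 and -0.13. At day 4 they were 70 of 94 (74.5%) and 499 of 883 (56.5%), with medians of 0.21 and 0.03. The day 4 shares were 63.8% and 62.6% without sahh1 sample 1 of that age, and 66.0% and 38.2% without sahh1 sample 2. Without any 1 sample of day 7 or day 10 the shares were 57.4% to 74.5% and 29.7% to 42.9% at day 7, and 84.0% to 89.4% and 51.9% to 58.6% at day 10. A rise of at least 2-fold at day 10 was found in 38 of the 94 and in 44 of the 883. Of the 16 members called at day 7, 12 were called at day 1 and 13 at day 10. The calls share 1 estimate of spread, and neighbouring or related loci are not independent.

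**Figure D5:**
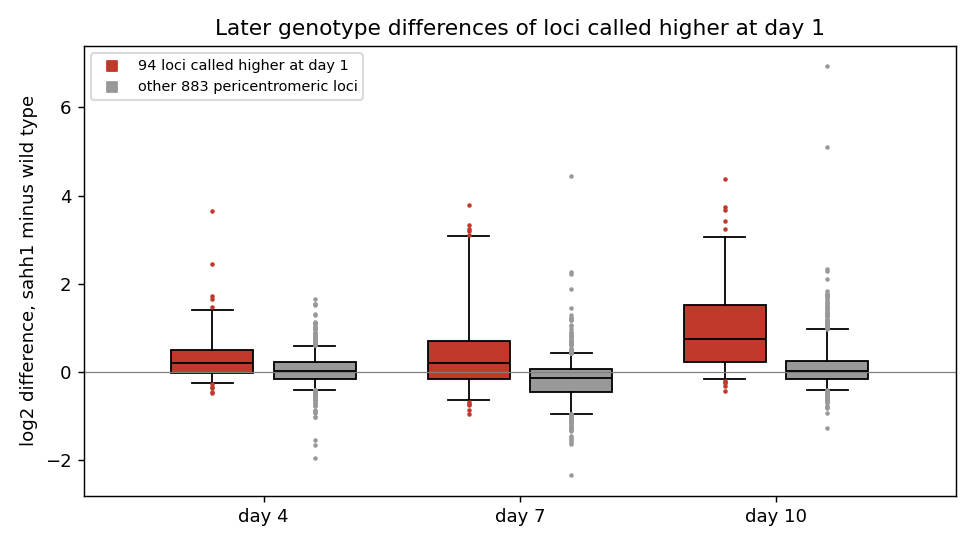
Difference between sahh1 and wild type (vertical axis, log2) at days 4, 7 and 10 for the 94 loci called higher at day 1 and for the other 883 pericentromeric loci. Boxes are quartiles, lines in them medians, whiskers the 5th and 95th percentiles, and points the loci beyond. The medians of the 94 are 0.21, 0.21 and 0.75, and those of the 883 are 0.03, -0.13 and 0.04.

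The genotype difference itself changed with age for 17 members (1.74%, against 0.615% of all loci) by limma's F test over the ages, made after quantile normalization. Among pseudogenes the shares were 2.01% of the pericentromeric ones, 4.0% of the other AT3G ones and 2.44% of all. Among protein-coding loci they were 0.901%, 0.31% and 0.305% in the same order. With the values as deposited the count of members was 62. By its size, whichever its sign, the difference was largest at day 1 in 13 of the 17, at day 4 in 2 and at day 10 in 2. The 2 of day 4, the pseudogenes AT3G42474 and AT3G42083, had negative differences there (-1.43 and -1.13 after quantile normalization), and were named after their values were seen. AT3G42083 had a positive difference of nearly the same size at day 1 (1.13), where it was among the called risers. Both day 4 values rest on the sahh1 samples of that age, which stood apart from each other. The pseudogene AT3G30790 was 8.10 and 8.56 in sahh1, against 3.98 and 4.36 in wild type at day 1 and 4.94 and 5.01 in sahh1, against 4.80 and 5.12 in wild type at day 10 (F test adjusted p = 0.00187), so that the genotypes lay far apart at day 1 and overlapped at day 10. AT3G30837, a pseudogene of zone 2, was 6.92 and 7.37 in sahh1, against 3.74 and 3.53 in wild type at day 1 and 4.07 and 4.33 in sahh1, against 4.08 and 4.00 in wild type at day 10 (0.00366). As deposited, AT3G43833 had differences of 4.98, 0.28, 0.47 and 0.76 at days 1, 4, 7 and 10 (0.00193). AT3G32195 ran the other way, with 0.62, 1.29, 4.45 and 6.93 (0.00193). Of the 73 members called higher at day 1 and at no other age, 11 passed this test, so for the other 62 a change with age was not shown. The count of 17 became 146 when sahh1 sample 1 of day 4 was left out, 83 when sample 2 of that group was, and 6 to 9 without any 1 of the samples sahh1 1 and 2 and wild type 1 and 2 of day 1, sahh1 1 and 2 and wild type 2 of day 7, or sahh1 1 and 2 of day 10.

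Genes with a known role sit among these loci, and of 16 such members 0 were called at any single age by limma (0, 1, 0 and 1 at an unadjusted p under 0.05 at days 1, 4, 7 and 10). With 2.16%, 0.78%, 0.563% and 0.823% of all loci called higher at these ages, a count of 0 among 16 does not set them apart. They include ARP6, a subunit of the SWR1 complex that places histone H2A.Z, ERD5 (proline dehydrogenase), SUS4 (a sucrose synthase), BR6OX2 (which makes brassinolide), JAZ11 (a repressor of jasmonate signalling), CAM7 (a calmodulin), HA8 (a plasma membrane proton pump), J3 (a DnaJ co-chaperone), AL3 (an Alfin-like protein), AAO2 (an aldehyde oxidase), NEK6 (a NIMA-related kinase) and CYP71B38 (a cytochrome P450), beside AFP3, ZIFL2, ATMIN7 and COBL2. The 16 differences ran between -0.44 and 0.22 at day 1, -0.73 and 0.20 at day 4, -0.89 and 0.21 at day 7 and -0.69 and 0.43 at day 10. Their medians were -0.12, -0.16, -0.04 and 0.03 at days 1, 4, 7 and 10. ARP6, in zone 2, was 11.82 and 11.92 in sahh1, against 12.04 and 11.96 in wild type at day 1 and 11.78 and 11.98 in sahh1, against 11.98 and 11.71 in wild type at day 10, and the genotypes overlapped at day 10. COBL2, a COBRA-like gene of zone 1, had the lowest difference of the 16 at day 10, with 10.92 and 11.37 in sahh1, against 11.77 and 11.90 in wild type (-0.69 ± 0.18, adjusted p = 0.14), and on the mean of the 4 ages it was called lower (-0.40, adjusted p = 0.0281). DAYSLEEPER in zone 3, a gene derived from a hAT transposase, was picked for its origin after its values were seen. It was 13.05 and 13.06 in sahh1, against 13.11 and 13.09 in wild type at day 1, with an adjusted p of 1.0, and its differences at the 4 ages were -0.05, -0.11, 0.03 and 0.12.

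Of 24 genes of DNA and histone methylation or demethylation and of heterochromatin silencing outside the interval, 2 were called at some age. Over all loci 0.296%, 0.0658% and 0.201% were called lower at days 1, 7 and 10, and 0.780% higher at day 4. IBM1, which encodes a histone demethylase, was lower in sahh1 at days 1, 7 and 10 (-1.19 ± 0.19, -1.29 ± 0.19 and -1.08 ± 0.19, adjusted p = 0.00408, 0.00819 and 0.0182). CMT3, a DNA methyltransferase, was higher at day 4 (0.99 ± 0.15, adjusted p = 0.0123), also without sahh1 sample 1 or 2 of that age (0.0149 and 0.00498). The other 22, with MET1 and DDM1 among them, were not called at any age. The median over the 24, which mix genes that add such marks with demethylases, was -0.01, 0.17, 0.06 and 0.06 at days 1, 4, 7 and 10.

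Markers of tissues were read beside these counts. The summed level, or sum, of a set is the log2 of its summed intensities, so the brightest markers weigh most in it. Of 3 endosperm markers of germinating seeds 0 of 3 were called at any age. Their summed level at day 1 was 16.96 and 16.91 in sahh1, against 16.66 and 16.76 in wild type. Of 3 pollen markers 0 of 3 were called, with a summed level of 5.28 to 6.86 in the sahh1 samples and 5.43 to 7.14 in the wild-type samples over all ages. All 3 were dim, with group means of 3.29 to 5.72. Of 4 seed storage markers 0 of 4 were called, with 15.08 and 14.96 in sahh1 and 15.35 and 15.22 in wild type at day 1. Of 4 green tissue markers 0 of 4 were called, at 16.48 to 17.25 in sahh1 and 16.61 to 17.34 in wild type. LHCB1.1 among them was dim, with group means of 3.34 to 6.22, and so says little. Of 3 root hair markers, 1 (EXPA7, an expansin) was lower at day 4, a call lost without sahh1 sample 1 of that age (adjusted p = 0.0583), and 3 were lower at day 10, where the sum was 9.58 and 8.87 in sahh1 and 11.25 and 11.07 in wild type. Their part in the differences of the pericentromeric loci was not tested.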

How the data were processed

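For each of 32 1-colour arrays the authors deposited a linear intensity of every locus. RMA was named in the submitters' processing notes, with no version, and the files give no background, probe or depth data. The number of arrays limits the precision. Log2 was taken of the deposited intensity, arrays 1 and 2, and 3 and 4, of each group were averaged into 16 samples, and limma 3.58.1 in R 4.3.3 was fitted on all 30385 loci and 8 group means (lmFit, eBayes), with Benjamini-Hochberg adjustment over all loci and a threshold of 0.05. Pairs of arrays differed within a group by an SD of 0.112 to 0.331 and across pairs by 0.179 to 0.710 over 14889 bright loci, and no label explains these pairs. The change of the genotype difference with age was tested with limma's F test after quantile normalization over all arrays. Scripts were tested on simulated data.

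Biotypes and symbols came from RefSeq. The table's genome build is not given in the sources used here, so no coordinates or sequences are printed. Named loci were the 4 pseudogenes and the 4 protein-coding loci with the largest called rise at an age and up to 3 with the largest called fall, those called at all 4 ages, the 4 with the lowest p of change with age, the first and last locus of the longest run of called neighbours, and the list members given above. The members, lists and tests were chosen with earlier results of these data known. Alternatives were all 32 arrays as replicates or with the sample as a random block, other scalings, array weights, a trended robust prior, no dim loci, a 2-fold minimum, fits of 1 age, a replicate block and each sample left out.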

Additional observations from a re-analysis of the deposited data

Results flagged for a closer look

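The genotype difference changed with age for 17 of the 977 pericentromeric loci by limma's F test over the 4 ages (1.74%, against 0.615% of all loci), a test of the difference between ages itself. Among pseudogenes the shares were 2.01% of the pericentromeric ones, 4.0% of the other AT3G ones and 2.44% of all. The 4 members with the lowest adjusted p were AT3G30790 (0.00187), AT3G32195 (0.00193), AT3G43833 (0.00193) and AT3G30837 (0.00366). As deposited, AT3G30790 had differences of 4.16, -0.10, -0.94 and 0.01 at days 1, 4, 7 and 10, and AT3G30837 3.51, 0.24, 0.41 and 0.16. The 4 calls were kept under every alternative in which they were tested, the removal of each sample included. AT3G30790, AT3G43833 and AT3G30837 were not tested with the dimmest loci left out, since that filter removed them.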

How the results depend on the processing

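Of 34 named calls, 20 were kept under every alternative in which they were tested and 25 without any 1 sample. Of the 20, 4 were removed by the filter on dim loci and so not tested there (AT3G43833 at day 1, and the change with age of AT3G30790, AT3G30837 and AT3G43833). None of the 936 alternative values of these calls reversed, 826 stayed past the threshold and 110 did not. Counts of members higher in sahh1 moved more. At day 1 (94) leaving out the dimmest 25% of loci gave 48, all of them among the 94. That filter left 295 of the 977 members to test, and 289 for the change with age. The day 1 count was 134 with 9 lower over all 32 arrays and 135 with 13 lower with array weights. After quantile normalization the count was 65, with that age alone 81 (68 of them among the 94), and without any 1 sample 77 to 104. At day 4 (1) it was 48 with 13 lower with all 32 arrays as replicates, 15 with the sample as a random block, 28 with 22 lower after quantile normalization, 3 without the dimmest loci, 2 under cyclic loess, 2 under scaling to reference genes, and 1 to 48 without any 1 sample. At day 7 (16) it was 37 with 50 lower over all 32 arrays, 3 after quantile normalization, 1 with that age alone and 7 to 16 without any 1 sample. At day 10 (29) it was 92 over all 32 arrays, 16 after quantile normalization, 44 with that age alone and 19 to 40 without any 1 sample. On the mean of the ages (95) it was 57 without the dimmest loci, 50 with a 2-fold minimum and 79 to 106 without any 1 sample. The change with age (17) was called for 112 over all 32 arrays, 38 with the random block, 7 without the dimmest loci, 50 with array weights, 62 as deposited, 62 under cyclic loess, 57 under scaling to reference genes and 6 to 146 without any 1 sample. Deviations of same-numbered samples from their group means correlated between sahh1 and wild type at r = -0.488, 0.189, 0.753 and -0.173 at days 1, 4, 7 and 10. The sign differed between ages, so the numbers were not taken to pair samples in the main fit. A replicate block is 1 effect common to all ages, and a pairing at day 7 alone, where r was highest, was not fitted. The replicate block gave 92, 2, 15 and 28 at days 1, 4, 7 and 10, 89 on the mean and 12 for the change with age. A crossed replicate block, chosen after seeing the data because of the negative correlations at days 1 and 10, gave 95, 3, 17, 33, 95 and 17. Fits without the day 4 groups, also chosen after seeing the data, gave 93, 14 and 41 at days 1, 7 and 10. Other causes of these moves were not tested. Signal near background limits most members, and 707 of 977 lay below the lower quartile of all loci in wild type at day 1.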

Other observations

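The pseudogenes AT3G29730, AT3G30396 and AT3G30767 followed almost the same levels over the samples. Pearson's r of their log2 levels over the 16 samples was 0.989 to 0.994 between them, and 3 of 190 pairs among the 20 named pseudogenes had r of at least 0.98. Such a resemblance was rare but not confined to them. Of 5460 pairs among the 105 members called at 1 or more ages, 10 had such an r, these 3 pairs included. AT3G30663 and AT3G42720 (0.989, 528 steps apart) were another such pair, and 229 pairs differed by under 1 in every sample. The 3 pseudogenes are not neighbours, with 87 to 176 steps between them in the order of the loci. The points share array scaling and the genotype difference of day 1, and hybridisation of 1 transcript to probes of like sequence was not tested. Pseudogenes of the members called higher at day 1 had a median length in RefSeq of 2618 bases (quartiles 1824 and 3843), against 1925 (932 and 3388) in those not called.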
